A study of Canis lupus familiaris with 12 samples.

Results

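Of the 30951 Ensembl gene identifiers in the expression tables of 2 canine hemangiosarcoma cell lines, 40 were raised without glucose in both lines by a rule on their TPM values. TPM is a read count scaled for the length of the gene and the size of the library, so each value is a share of its library. For each line, the response D was the log2 ratio of the mean TPM + 1 at 0 mM glucose to the mean TPM + 1 at 25 mM. A gene was kept when its mean TPM was at least 2 over the 6 libraries of each line, D was at least 0.4 in both lines, and all 3 values at 0 mM lay above all 3 values at 25 mM in each line. Genes on the study's list of canine RT-qPCR primers were left out. The members were therefore chosen by the glucose responses themselves, and the responses are given below as a description without a test.

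HU-HSA-2 and HU-HSA-3 are cell lines established from splenic hemangiosarcomas of dogs. Both were grown in DMEM with fetal bovine serum and penicillin–streptomycin, containing either 0 or 25 mM glucose for 48 h. Polyadenylated RNA was sequenced in 3 libraries for each line and glucose concentration, 12 libraries in all. Each line is a single line, so a difference between them is a difference between these lines and not between kinds of tumor, and the study's methods say that the cells were cultured in triplicate, without saying whether these were cultures of different days or passages.

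Glucose feeds glycolysis and also supplies carbon for nucleotides, amino acids and the sugar chains of glycoproteins. When it is withdrawn, mammalian cells can switch on the integrated stress response, in which the transcription factor ATF4 induces genes for amino acid synthesis and transport together with the transcription factor DDIT3 (CHOP). Hemangiosarcoma is a tumor of vascular endothelial cells, whose defining markers include the adhesion molecule PECAM1 (CD31), the VEGF receptor KDR and the clotting protein VWF.

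The members could not be ordered by function. The tables list identifiers without symbols, and the reference gene table used here holds 0 of the 30951, so members are given by identifier and by their values. The 2 members with the larger values of the smaller of their 2 responses are named by a rule, and the 10 members whose response differed between the lines are named because of that result, after their values were seen.

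Library totals of the expected counts lay between 10406166 and 13405159. HU-HSA-3 at 0 mM replicate 1 stood apart from the other 2 libraries of its group. The chi-square statistic of its counts over the degrees of freedom was 18.3 and 21.2 against them, compared with 2.52 to 9.13 for all other replicate pairs. It was the lowest of its 3 libraries in 62.2% of the 9916 genes that reached the mean TPM of 2 in both lines, and in 20 of the 40 members. Without it the rule kept 50 genes, which included all 40 members, and the members' D in HU-HSA-3 moved by -0.21 to 0.15 with a median of 0.03. Of the endothelial markers, PECAM1 had a mean of 1116 TPM in HU-HSA-2 and 432 TPM in HU-HSA-3 at 25 mM, and KDR had 74.3 and 43.6 TPM. VWF was near 0, at 0.477 and 0.170 TPM.

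Most genes that met the criteria in either line did not meet them in the other. Among the 9916 genes expressed in both lines, the TPM values of 12.7% lay wholly higher at 0 mM in HU-HSA-2 and those of 8.12% in HU-HSA-3. Adding the minimum D of 0.4 left 303 genes (3.06%) in HU-HSA-2 and 249 genes (2.51%) in HU-HSA-3. The 41 genes that met both criteria in both lines made up 13.5% of the first set, where 2.51% of all expressed genes met them in HU-HSA-3. They made up 16.5% of the second set, where 3.06% of all expressed genes met them in HU-HSA-2. One of the 41 was DDIT3, which was on the RT-qPCR primer list, and 40 members remained. The same rule with all signs turned kept 38 genes that were lower at 0 mM in both lines. With TMM-normalized CPM (counts scaled for library size but not for gene length) in place of TPM, the rule kept 70 genes, of which 37 were members.

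**Figure D1:**
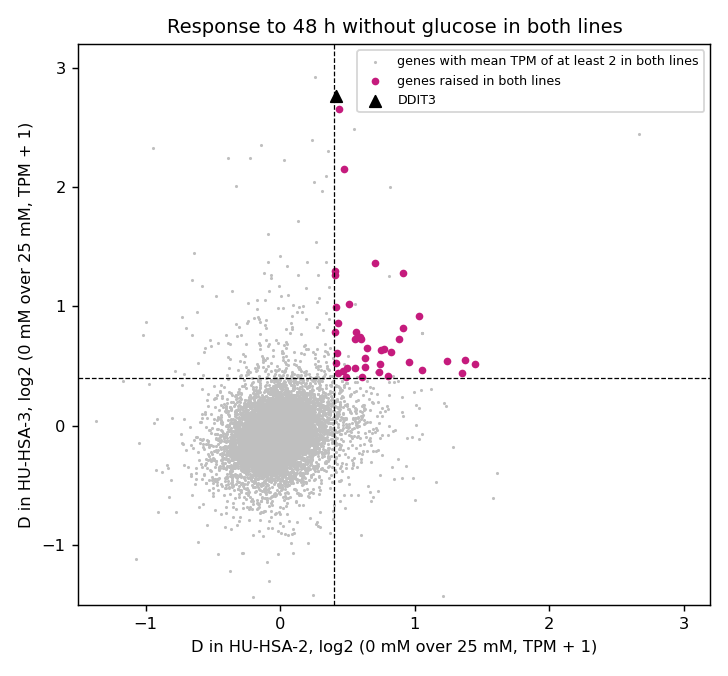
Response D to 48 h without glucose in HU-HSA-2 (horizontal axis) and HU-HSA-3 (vertical axis), as log2 of mean TPM + 1 at 0 mM over 25 mM, for the genes with a mean TPM of at least 2 in both lines. Dashed lines mark D of 0.4, grey points are single genes, coloured points are the 40 members and the triangle is DDIT3; 9896 genes are drawn and 20 lie outside the axes.

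Most members sat closer to the minimum of the rule than to the top of the range. D in HU-HSA-2 ran from 0.41 to 1.45 with a median of 0.62, and D in HU-HSA-3 ran from 0.41 to 2.66 with a median of 0.63. Over all genes expressed in both lines, the median D was -0.03 for HU-HSA-2 and -0.08 for HU-HSA-3. In each line 18 members had D under 0.6, and 6 of them had it in both. A D of at least 1, a doubling on this scale, was reached by 6 members in HU-HSA-2 and by 7 in HU-HSA-3, and no member reached it in both. In the scatter of the responses, 10 members had D of at least 0.6 in both lines.

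The edges of the rule separated genes of nearly equal response. The members nearest to the minimum had D, with HU-HSA-2 given before HU-HSA-3, of 0.61 and 0.41, 0.41 and 1.30, and 0.41 and 0.79. Genes just left out had 0.80 and 0.40, 0.40 and 0.98, and 0.40 and 0.57, where the smaller value fell short of 0.4 before rounding. A further 19 genes passed on D in both lines but had overlapping values in at least 1 line, and 15 passed on D and overlap but had a mean TPM under 2 in at least 1 line. At that limit the members with the lowest means had 2.16 and 2.37 TPM in HU-HSA-3, and the genes just below it had 1.86 and 1.58 TPM.

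The gap between the groups was narrow for many members. Measured as the log2 ratio of the lowest value at 0 mM to the highest at 25 mM, each with 1 TPM added, it had a median of 0.39 and a range of 0.04 to 1.34 over the libraries of HU-HSA-2. For HU-HSA-3 the median was 0.30 and the range 0.0047 to 2.55. The heat map of all members by library shows this range in the paler and darker cells at 0 mM.

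**Figure D2:**
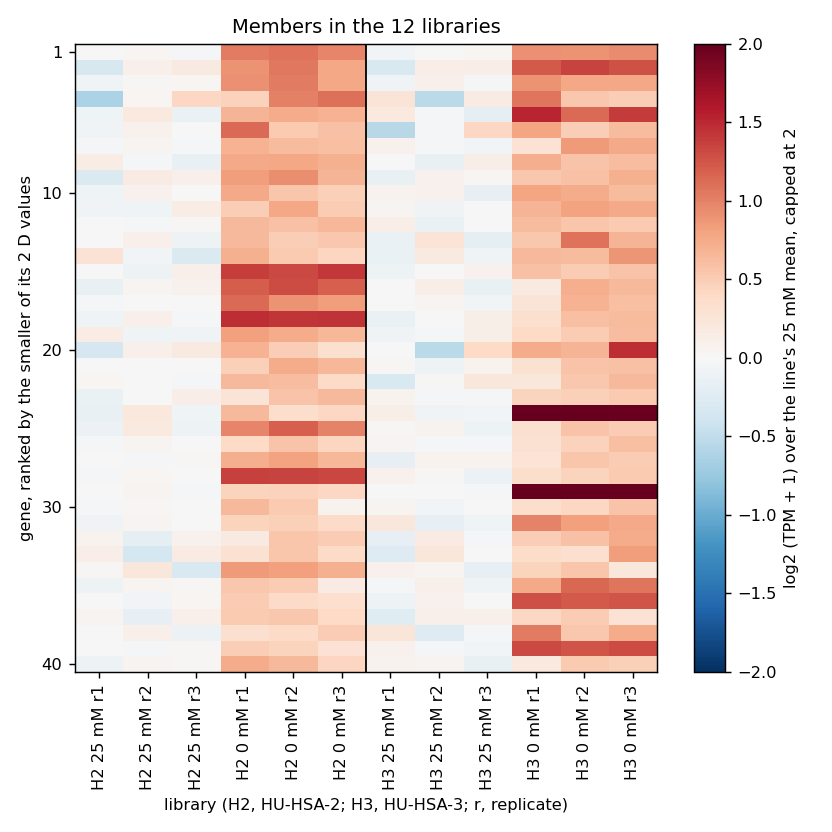
Level of each member (vertical axis, ranked by the smaller of its 2 D values, largest at the top) in each of the 12 libraries (horizontal axis; H2, HU-HSA-2; H3, HU-HSA-3; r, replicate), as log2 of TPM + 1 over the mean of the same line at 25 mM. Red is above that mean, blue is below it and the color is capped at 2; the 6 libraries at 0 mM are pale to dark red and the 6 at 25 mM are mostly near white, with 2 members at the cap in HU-HSA-3.

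The members were expressed at moderate levels. At 25 mM their mean TPM ranged from 1.73 to 577 in HU-HSA-2 with a median of 17.7, and from 1.36 to 755 in HU-HSA-3 with a median of 17.4. The medians of all genes expressed in both lines were 28.5 and 25.7 TPM. At 0 mM the members' median was 25.8 TPM in HU-HSA-2 and 28.4 TPM in HU-HSA-3. In HU-HSA-2 9 members were under 10 TPM at 25 mM and 3 were at 100 TPM or more, compared with 11 and 7 members for HU-HSA-3.

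Together the 40 genes took 0.218% ± 0.00597 of all TPM in HU-HSA-2 at 25 mM and 0.332% ± 0.0105 at 0 mM (SD, n = 3). In HU-HSA-3 the share was 0.297% ± 0.00965 at 25 mM and 0.854% ± 0.0301 at 0 mM. A single gene, ENSCAFG00000020196, made up more than the other 39 members together in HU-HSA-3 without glucose. Without it the share at 25 and 0 mM was 0.169% ± 0.00506 and 0.266% ± 0.00964 for HU-HSA-2. For HU-HSA-3 it was 0.221% ± 0.00922 and 0.377% ± 0.00390.

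The members tended to be short. Relative to the median gene expressed in both lines, whose effective length (the length over which reads can start, as implied by the ratio of counts to TPM) was set to 1, the members' median was 0.718 and their range 0.0597 to 8.96. Shorter than this median gene were 29 members, and 11 were longer. In HU-HSA-3, 3.24% of the genes shorter than the median and 1.80% of the longer ones met the criteria, and the median D was -0.05 and -0.11. In HU-HSA-2 the corresponding values were 3.32% and 2.81%, with a median D of -0.03 in both. The part of length in the choice of members was not tested. The estimated counts of 1 member, ENSCAFG00000013780, were not whole numbers in 11 of the 12 libraries, which happens when reads are shared between genes, so its values are uncertain.

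The member with the largest response common to both lines was ENSCAFG00000015013. Its TPM in HU-HSA-2 was 80.13, 81.59 and 77.71 at 25 mM and 165.51, 170.75 and 157.58 at 0 mM. In HU-HSA-3 it was 325.76, 341.69 and 349.22 at 25 mM and 638.38, 635.32 and 655.72 at 0 mM. In each line the lowest library without glucose lay far above the highest with glucose, and the lines themselves did not overlap, since the gene was more abundant in HU-HSA-3 with glucose than in HU-HSA-2 without it. The means were 79.8 ± 1.96 and 165 ± 6.63 TPM in HU-HSA-2 and 339 ± 12 and 643 ± 11.0 TPM in HU-HSA-3 (SD, n = 3), with D of 1.04 and 0.92. The log2 fold changes fitted to the counts were 1.10 (SE 0.06) and 1.03 (SE 0.07).

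The next was ENSCAFG00000009113, a gene of short effective length at 0.124 of the median. Its TPM in HU-HSA-2 was 24.74, 33.32 and 35.13 at 25 mM and 58.9, 65.69 and 53.94 at 0 mM. In HU-HSA-3 it was 17.0, 23.52 and 23.47 at 25 mM and 51.14, 55.84 and 53.05 at 0 mM. At 25 mM all 3 libraries of HU-HSA-3 lay below those of HU-HSA-2, and at 0 mM the lines overlapped. D was 0.92 for HU-HSA-2 compared with 1.28 for HU-HSA-3, and the fitted log2 fold changes were 0.98 (SE 0.16) and 1.56 (SE 0.18).

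**Figure D3:**
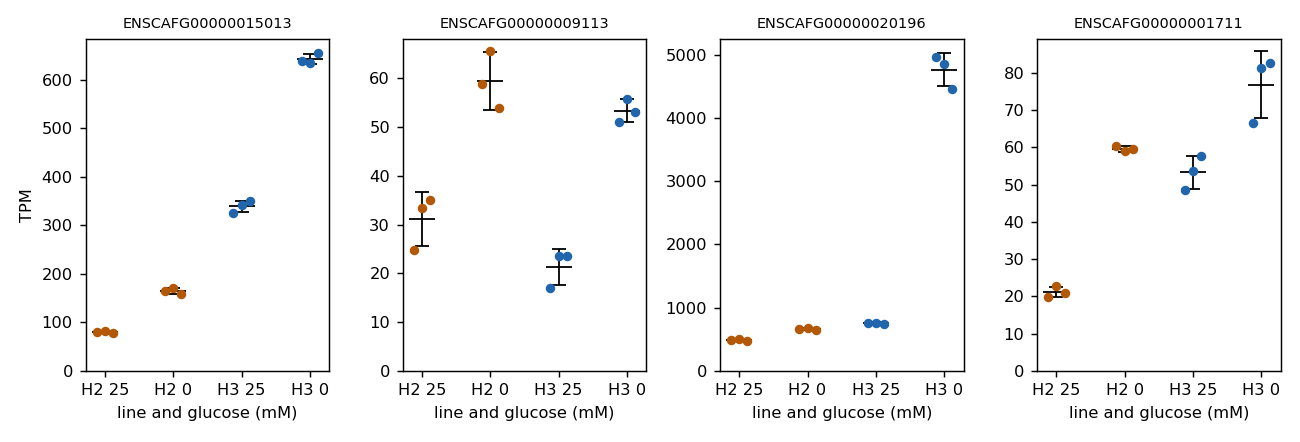
TPM (vertical axes, each starting at 0) of 4 members in HU-HSA-2 (H2) and HU-HSA-3 (H3) at 25 and 0 mM glucose. Points are libraries (n = 3 per group), and lines with bars are the mean ± SD; ENSCAFG00000015013 and ENSCAFG00000009113 have no overlap between 25 and 0 mM in either line, ENSCAFG00000020196 reaches a mean of 4765 TPM only in HU-HSA-3 at 0 mM, and ENSCAFG00000001711 has its wider step in HU-HSA-2.

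Whether the members responded to the same extent in both lines was tested as the difference between the 2 log2 fold changes, HU-HSA-3 minus HU-HSA-2, in a fit of all 12 libraries. The rule did not use this difference itself, but it set a minimum for each of the 2 responses that make it up, in the same libraries. By the quasi-likelihood test of edgeR, with Benjamini-Hochberg adjusted p-values over 12233 genes, 10 of the 39 members tested had an adjusted p under 0.05 (25.6%), compared with 4.73% of all genes tested. The response was larger in HU-HSA-3 for 5 members, against 2.43% of all genes in that direction, and smaller in HU-HSA-3 for the other 5, against 2.31% of all genes. The share of members called cannot be set against that of all genes as a result about the members. The rule required of every member a response of at least 0.4 in both lines, while the median gene had almost none. Of the 9 tested members with D of at least 0.6 in both lines, 0 were called. The smaller D of the 10 called members was 0.41 to 0.56. The median size of the difference, without regard to sign, was 0.25 over the members and 0.19 over all genes tested. Without HU-HSA-3 at 0 mM replicate 1, 11 members were called, which included the 10, against 6.85% of all genes. These are bulk cultures, in which fewer cells expressing a gene and less of its RNA per cell cannot be told apart.

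The 5 members with the larger response in HU-HSA-3 had D between 0.41 and 0.48 in HU-HSA-2, close to the minimum of the rule, and between 1.0 and 2.66 in HU-HSA-3. ENSCAFG00000020196 was the most abundant of them. Its TPM in HU-HSA-2 was 484.27, 505.64 and 472.7 at 25 mM and 663.1, 669.69 and 652.67 at 0 mM. In HU-HSA-3 it was 760.38, 761.94 and 742.56 at 25 mM and 4970.39, 4855.82 and 4468.33 at 0 mM. The libraries of HU-HSA-3 without glucose stood far above the other 9. The difference between the responses was 2.28 (SE 0.10, adjusted p = 2.11e-10 by edgeR's quasi-likelihood test).

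ENSCAFG00000029474 had TPM of 30.14, 38.73 and 31.43 at 25 mM and 52.71, 42.94 and 45.04 at 0 mM in HU-HSA-2. Within HU-HSA-3 it had 16.12, 13.94 and 14.23 at 25 mM and 68.17, 77.39 and 61.2 at 0 mM. With glucose it was lower in HU-HSA-3, and without glucose the order of the lines was turned. The difference between the responses was 1.85 (SE 0.19). ENSCAFG00000003880 followed the same order, with means of 36.6 ± 0.555 and 48.8 ± 3.57 TPM in HU-HSA-2 and 22.9 ± 1.19 and 57.7 ± 1.48 TPM in HU-HSA-3 at 25 and 0 mM, and a difference of 0.98 (SE 0.10).

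ENSCAFG00000012093 stayed below its HU-HSA-2 level in HU-HSA-3 also without glucose. Its means were 51.2 ± 1.60 and 68.4 ± 4.00 TPM in HU-HSA-2 and 19.6 ± 1.34 and 48.3 ± 1.19 TPM in HU-HSA-3 at 25 and 0 mM (SD, n = 3), and the difference between the responses was 0.96 (SE 0.12). ENSCAFG00000002797 was also the more abundant in HU-HSA-2. Its TPM there was 60.11, 67.27 and 65.79 at 25 mM and 93.98, 92.28 and 72.27 at 0 mM, and in HU-HSA-3 it was 9.35, 10.37 and 8.95 and then 16.78, 22.41 and 21.13. The groups did not overlap, but 1 library at 0 mM in each line lay nearer to the glucose group than the other 2. The difference between the responses was 0.72 (SE 0.14, adjusted p = 0.0067 by edgeR's quasi-likelihood test), and it was not called by limma on log2 TPM, with adjusted p of 0.112 and 0.114 for pseudocounts of 1 and 0.1.

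The 5 members with the smaller response in HU-HSA-3 had D between 1.06 and 1.45 in HU-HSA-2 and between 0.44 and 0.56 in HU-HSA-3. ENSCAFG00000001711 had the largest D of all members in HU-HSA-2. Its TPM there was 19.91, 22.71 and 20.88 at 25 mM and 60.42, 58.93 and 59.51 at 0 mM. In HU-HSA-3 it was 48.59, 53.68 and 57.62 at 25 mM and 66.49, 81.38 and 82.77 at 0 mM. The level in HU-HSA-2 without glucose was thus only just above that of HU-HSA-3 with it. The difference between the responses was -0.91 (SE 0.11, adjusted p = 5.63e-05 by edgeR's quasi-likelihood test).

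ENSCAFG00000019036 and ENSCAFG00000025202 lay further apart between the lines. ENSCAFG00000019036 had means of 29.7 ± 0.822 and 77.1 ± 0.774 TPM in HU-HSA-2 and 132 ± 9.93 and 180 ± 11.4 TPM in HU-HSA-3 at 25 and 0 mM, and a difference of -0.89 (SE 0.09). ENSCAFG00000025202 had 31.3 ± 2.33 and 82.6 ± 2.70 TPM in HU-HSA-2 and 132 ± 8.56 and 195 ± 5.85 TPM in HU-HSA-3, and a difference of -0.75 (SE 0.13). For both genes, every library of HU-HSA-3 with glucose lay above every library of HU-HSA-2 without it.

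ENSCAFG00000000874 was the least abundant of the 10 in HU-HSA-2. Its TPM in HU-HSA-2 was 1.85, 2.29 and 2.37 at 25 mM and 6.37, 6.84 and 6.26 at 0 mM, and in HU-HSA-3 it was 11.33, 12.52 and 10.17 and then 13.01, 19.49 and 18.34. The groups were well apart in HU-HSA-2, whereas in HU-HSA-3 replicate 1 at 0 mM lay close to the glucose libraries. The difference was -0.98 (SE 0.18, adjusted p = 0.0035 by edgeR's quasi-likelihood test). By limma on log2 of TPM + 1 it was not called, with an adjusted p of 0.0738.

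ENSCAFG00000013482 was at the threshold. Its TPM was 9.18, 11.66 and 9.22 at 25 mM and 20.58, 24.34 and 20.81 at 0 mM in HU-HSA-2, and 17.09, 17.75 and 15.52 and then 21.22, 25.27 and 24.2 in HU-HSA-3. Both lines reached much the same level without glucose and differed with it. The difference between the responses was -0.55 (SE 0.15, adjusted p = 0.0491 by edgeR's quasi-likelihood test), and it lost its call in 12 of 20 alternatives, with adjusted p up to 0.125. Among these were the fits without HU-HSA-2 replicate 1 or 3 at 25 mM, without any single HU-HSA-2 library at 0 mM, without HU-HSA-3 replicate 1 or 2 at 25 mM and without its replicate 3 at 0 mM, with differences of -0.59 to -0.50.

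**Figure D4:**
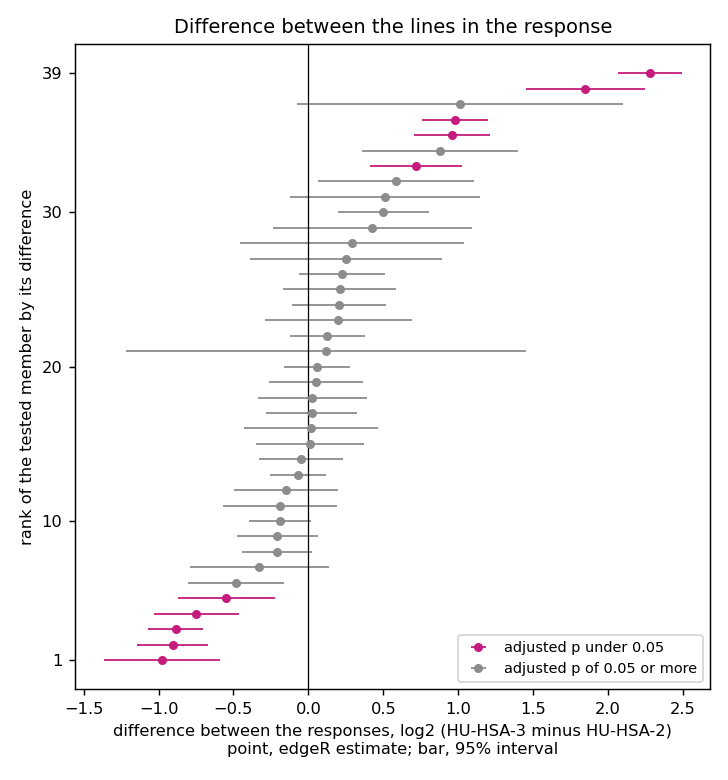
Difference between the log2 fold changes of the 2 lines (HU-HSA-3 minus HU-HSA-2, horizontal axis) for the 39 members tested, ranked on the vertical axis. Points are edgeR estimates and bars are 95% intervals; the 10 coloured members had an adjusted p under 0.05, with 5 on each side of 0, and the intervals of the grey members reach as far as 2.10.

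For the remaining 29 members tested, the estimated differences lay between -0.48 and 1.01 with a median SE of 0.17. The 1.01 was that of a member with a mean of 1.36 TPM in HU-HSA-3 at 25 mM. Only its libraries at 0 mM brought it to the minimum mean TPM of 2. The furthest 95% bound, 2.10, was that of the same member, so sizable differences were not detectable for the least precise of the 29. ENSCAFG00000015013 was among the more precise, with a difference of -0.07 (95% interval -0.26 to 0.12, adjusted p = 0.741 by edgeR's quasi-likelihood test, and 0.330 to 0.951 under the alternatives). For ENSCAFG00000009113 the difference was 0.58 (95% interval 0.06 to 1.10, adjusted p = 0.211 by the same edgeR test, and 0.142 to 0.445 under the alternatives).

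How far the members' levels differed between the lines with glucose present was asked at 25 mM. By the quasi-likelihood test of edgeR, with Benjamini-Hochberg adjusted p-values, 34 of the 39 members tested differed between HU-HSA-3 and HU-HSA-2 (87.2%), compared with 74.3% of the 12233 genes tested. Of these, 16 were higher in HU-HSA-3 (36.1% of all genes) and 18 were lower (38.2% of all genes). A called difference of at least 1 on the log2 scale was found for 21 of the 39 members tested, compared with 29.2% of all genes. These shares are not of like genes. Members needed a mean TPM of at least 2 in both lines, while all genes tested had passed only a filter on counts. The rule also used the values at 25 mM. The 34, the 18, the 21 and the median that follows include 4 members with a mean under 2 TPM in HU-HSA-3 at 25 mM. The median size of the difference, without regard to sign, was 1.05 over the members and 0.60 over all genes tested.

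The 10 members that were higher in HU-HSA-3 by at least this much had log2 differences of 1.04 to 4.42, and their mean TPM was 2.17 to 79.8 in HU-HSA-2 compared with 11.3 to 339 in HU-HSA-3. ENSCAFG00000015013 was one of them, at 2.25 (SE 0.07, adjusted p = 1.85e-14 by edgeR's quasi-likelihood test). The 11 that were lower in HU-HSA-3 had differences of -3.09 to -1.05, and their mean TPM was 3.90 to 83.0 in HU-HSA-2 compared with 1.36 to 25.4 in HU-HSA-3. Of these 11, 4 had a mean under 2 TPM in HU-HSA-3 at 25 mM and reached the minimum of the rule only through the libraries at 0 mM, and without them the lowest difference was -2.57, that of ENSCAFG00000002797. Another 13 were called within 1 log2 unit, from -0.81 to 0.95, and they included ENSCAFG00000009113 at -0.73 (SE 0.19). The 5 members that were not called had estimates between -0.25 and 0.62. Most members, like most genes, therefore had unlike levels in the 2 lines with glucose, in both directions. The tests of the levels at 25 mM and of the responses share the libraries with glucose, and their values are not independent of each other.

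**Figure D5:**
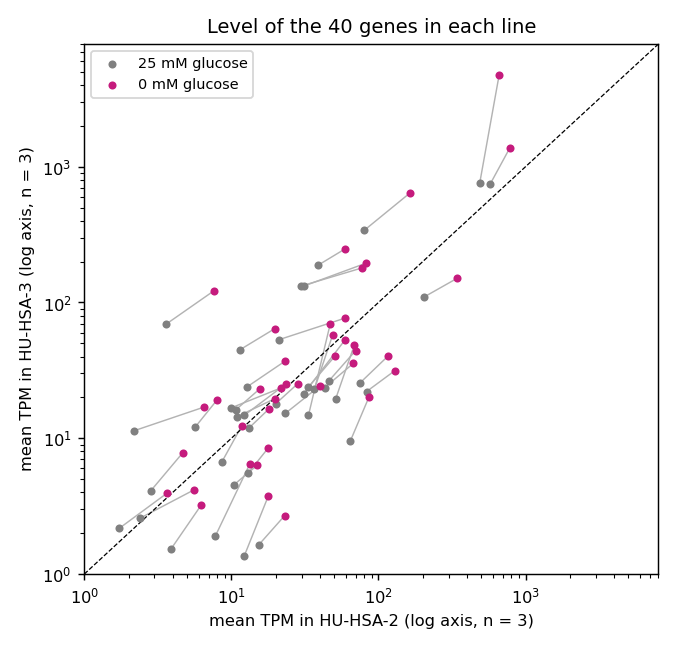
Mean TPM of the 40 members in HU-HSA-2 (horizontal axis) and HU-HSA-3 (vertical axis), both on log axes (n = 3 libraries per mean). Grey points are 25 mM glucose, coloured points are 0 mM, a line joins the 2 points of a gene and the dashed line marks equal levels; at 25 mM 19 members lie above the dashed line, and the longest vertical step belongs to ENSCAFG00000020196.

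The genes on the study's RT-qPCR primer list give the setting of the members. Of 7 stress-response genes on that list, all had D of at least 0.4 in HU-HSA-3, from 0.82 to 4.03. In HU-HSA-2 only DDIT3 did, and 5 of the 7 had D below 0, with a range of -0.70 to 0.42. These values are from 48 h only. The paper reports from its time course that HU-HSA-2 also raised stress-response genes, with a peak early after glucose withdrawal. DDIT3 was the single gene of the list that met the rule. Its TPM in HU-HSA-2 was 39.33, 43.6 and 40.61 at 25 mM and 55.18, 58.31 and 52.54 at 0 mM, and in HU-HSA-3 it was 39.17, 35.92 and 40.12 and then 256.18, 286.91 and 256.52. It started from like levels in both lines, and its D was 0.42 for HU-HSA-2 but 2.76 for HU-HSA-3, which placed it beside ENSCAFG00000020196 in the scatter of responses. None of the 6 reference genes met the rule. The closest was B2M, the light chain of MHC class I, which had D of 0.22 and 0.36 with no overlap between the groups in either line. Neither the 3 endothelial markers nor the 2 proline synthesis genes reported here met the rule.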

How the data were processed

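Per the study's methods and the submitters' processing notes, the authors used STAR with the CanFam3.1 genome, then RSEM. For each line, one deposited table holds raw RSEM expected counts and another holds TPM, scaled by the authors for length and total. The notes also name edgeR 3.42.0. Versions of STAR and RSEM, the annotation and the strand setting are not given in the sources used here. The libraries were made with a directional kit, which keeps the strand, but whether the counting used it is not stated, so overlapping antisense genes are uncertain.

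Members were found from the deposited TPM. Expected counts were rounded, filtered with filterByExpr, TMM-normalized and tested with edgeR 4.0.16 in R 4.3.3 (quasi-likelihood test, Benjamini-Hochberg adjustment over all genes tested, threshold 0.05) on 12 libraries with one mean per group. The SE is the log2 fold change before shrinkage over the square root of F, and 95% intervals use the t distribution with the fit's degrees of freedom. The within-line fits used the 6 libraries of that line. Between 10406166 and 13405159 counts lay behind each library, and p-values measure only the spread between these libraries, from cells cultured in triplicate. On simulated counts, all 200 changed genes (log2 change 1.5) were recovered for the difference between the responses (11927 genes, 6 false calls) and for the lines at 25 mM (11930 genes, 7 false calls). The simulation gave every gene the same spread, held no deviating library and changed only genes above a minimum count. Most differences called among the members were smaller than 1.5, so it does not give the power for them.

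The rule for named genes took the 2 members with the largest smaller-of-both D. The members and lists were chosen with earlier results of these data known. Lists by symbol and sequences were not used here, because no table at hand other than the RT-qPCR primer list paired the identifiers with symbols. One gene of the RT-qPCR primer list is not reported here. Alternatives used limma 3.58.1 and DESeq2 1.42.0, other normalizations and filters, a replicate block and leaving out each library.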

Additional observations from a re-analysis of the deposited data

Results flagged for a closer look

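The response to glucose withdrawal was not the same in both lines for 10 of the 39 members tested, by edgeR's quasi-likelihood test of the difference itself with Benjamini-Hochberg adjustment, compared with 4.73% of all 12233 genes tested. The members had been chosen on the same 2 responses that make up the difference, so the comparison with all genes is not a result about them. As the log2 fold change in HU-HSA-3 minus that in HU-HSA-2, the difference was 2.28 for ENSCAFG00000020196, 1.85 for ENSCAFG00000029474, 0.98 for ENSCAFG00000003880, 0.96 for ENSCAFG00000012093 and 0.72 for ENSCAFG00000002797. It was -0.98 for ENSCAFG00000000874, -0.91 for ENSCAFG00000001711, -0.89 for ENSCAFG00000019036, -0.75 for ENSCAFG00000025202 and -0.55 for ENSCAFG00000013482. With 3 libraries per group, single libraries were not tested as outliers.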

How the results depend on the processing

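The number of genes meeting the rule was 40 with TPM and 70 with TMM-normalized CPM and the same limits, of which 37 were members. With the TPM minimum kept it was 59 (39 members), and with D centred on the median expressed gene 55 (all 40), 2 alternatives chosen after seeing the data. It was 45 with a pseudocount of 0.1, 49 and 32 with a mean TPM of at least 1 and 5, 59 with overlap allowed, and 37 to 50 when single libraries were left out, which kept 33 to 40 members. For the difference between the responses, 7 to 13 members were called over 20 alternatives and 9 to 12 when single libraries were left out, while the share called over all genes ran from 2.65% to 6.85%. DESeq2 called 12 and limma on TPM 7 and 8. With the replicate number as a block, 11 were called, of which 9 were among the 10. The correlations of same-numbered libraries' deviations were -0.03, 0.14 and -0.06 for HU-HSA-2 and 0.21, 0.18 and -0.08 for HU-HSA-3. They cannot settle whether the numbers pair the libraries, because differently numbered libraries were not compared. For the lines at 25 mM, 33 to 35 members were called in 19 alternatives, also when single libraries were left out, against 53.1% to 77.2% of all genes, and no block was possible because it would be nested in the line. Over 296 values of single genes, 274 stayed the same and 0 were reversed. For a difference, the same means an unchanged direction and test outcome. For a within-line fold change it means a shift smaller than the replicate spread. The call was lost in 15 (12 of them for ENSCAFG00000013482, with an adjusted p of 0.0562 by edgeR with the replicate block), and 7 fold changes moved by more than the replicate spread. The SE of the difference reached 0.63 among the members, and its relation to depth, level or length was not tested.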
